A study of Mus musculus with 6 samples.

Results

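The genes described here are 9 transcription regulators of male germ cells: Mybl1, Tcfl5, Rfx2, Crem, Sox30, Ovol1, Pou5f2, Tbpl1 and Taf7l. They were chosen by name, as regulators that switch on genes of pachytene spermatocytes and later stages, with earlier results of these data known. Each of the 9 was read by 1 transcript cluster (a set of probes that together measure 1 transcribed region) among the 21789 clusters tested, which stand for 19938 genes. RNA came from whole testes of mouse pups at postnatal day 15, from 3 samples labelled control and 3 samples labelled knockout, and each sample was hybridised to 1 Affymetrix Mouse Gene 1.0 ST array. The labels do not give the alleles, the cells in which the gene was deleted, the strain, or whether the replicates are separate animals. The p-values are therefore set against the spread among these 6 samples alone, and that spread may be technical.

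A spermatocyte that enters pachytene, the long stage of meiotic prophase in which paired chromosomes recombine, replaces much of its transcription programme. MYBL1 (A-MYB) is the best known activator of that switch: it turns on meiotic genes, the precursors of pachytene piRNAs (small RNAs that guide PIWI proteins) and genes of the piRNA machinery. Other regulators made by spermatocytes, among them RFX2, CREM, SOX30, TBPL1 and TAF7L, serve the genes of the spermatid, the haploid cell that follows, and several are transcribed long before the genes they act on. At the age studied here, the germ cells that lead the first wave have reached pachytene, and spermatids are still to come.

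Of the 9 regulators, 8 had a lower mean in the knockout than in the control and 1, Pou5f2, had a higher one, against 47% of all tested clusters with a lower mean. The differences were small. The largest were those of Tcfl5, at 0.79 of its control level, and Rfx2, at 0.82, while Mybl1 itself was at 0.96. In 5 of the 9 (Tcfl5, Rfx2, Tbpl1, Taf7l and Sox30) all 3 knockout values lay below all 3 control values, which was so in 8.6% of tested clusters. In 0 of the 9 did the knockout values all lie above, against 6.73% of clusters.

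No regulator passed an adjusted p of 0.05 in limma, a linear model with a moderated spread, after Benjamini-Hochberg adjustment over all tested clusters; 0.0138% of clusters (3) did. At an unadjusted p under 0.05, 4 of the 9 were lower (Tcfl5, Tbpl1, Rfx2 and Taf7l), against 6.45% of tested clusters, and 0 were higher, against 4.1%. The median difference of the 9 was -0.16 on the log2 scale, where the median over all tested genes was 0.0033. In whole testis RNA, fewer cells of a type and less RNA per cell cannot be told apart, and this holds for every difference below.

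**Figure D1:**
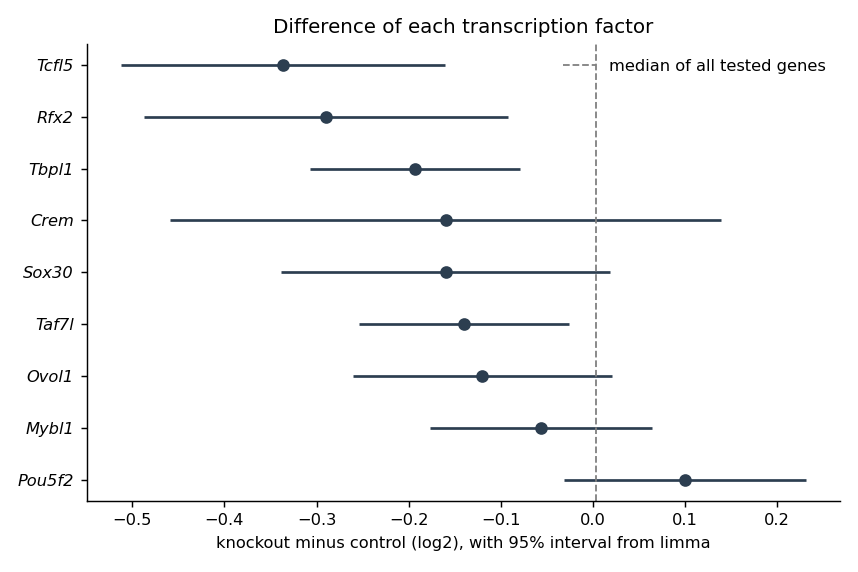
Difference between knockout and control for each of the 9 regulators on the log2 scale (points), with the 95% interval from limma (lines), ordered by size; n is 3 arrays per group and the dashed line is the median of all tested genes. The intervals of Tcfl5, Rfx2, Tbpl1 and Taf7l lie below 0, and those of Crem, Sox30, Ovol1, Mybl1 and Pou5f2 cross it.

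The sequences before the start sites of these genes are shown because 5 of them had separate groups in the same direction, and because several of these factors recognise short motifs that can be looked for there. RefSeq windows of 250 bases directly upstream of the annotated start site (assembly GRCm38.p6) were matched for 6 of the 9 regulators. They are printed 5′ to 3′ along the gene, with every match to a searched motif in capitals.
Tcfl5, chr2:180642692-180642941 (minus strand): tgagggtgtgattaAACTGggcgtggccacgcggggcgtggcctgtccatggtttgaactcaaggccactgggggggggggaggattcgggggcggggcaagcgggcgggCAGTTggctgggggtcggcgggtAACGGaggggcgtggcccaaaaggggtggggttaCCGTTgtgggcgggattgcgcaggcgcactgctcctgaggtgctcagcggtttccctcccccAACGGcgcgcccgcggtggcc
Rfx2, chr17:56831009-56831258 (minus strand): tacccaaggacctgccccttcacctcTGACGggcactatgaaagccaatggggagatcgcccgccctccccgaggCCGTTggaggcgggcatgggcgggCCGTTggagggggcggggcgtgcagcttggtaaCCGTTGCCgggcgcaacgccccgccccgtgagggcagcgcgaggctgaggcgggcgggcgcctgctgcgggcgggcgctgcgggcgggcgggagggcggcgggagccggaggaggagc
Tbpl1, chr10:22731448-22731697 (minus strand): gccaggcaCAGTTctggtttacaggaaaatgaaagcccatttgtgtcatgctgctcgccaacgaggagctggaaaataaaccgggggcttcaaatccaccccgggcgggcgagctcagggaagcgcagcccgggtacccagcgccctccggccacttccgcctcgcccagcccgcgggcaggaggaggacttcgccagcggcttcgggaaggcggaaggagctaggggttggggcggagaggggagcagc
Taf7l, chrX:134476491-134476740 (minus strand): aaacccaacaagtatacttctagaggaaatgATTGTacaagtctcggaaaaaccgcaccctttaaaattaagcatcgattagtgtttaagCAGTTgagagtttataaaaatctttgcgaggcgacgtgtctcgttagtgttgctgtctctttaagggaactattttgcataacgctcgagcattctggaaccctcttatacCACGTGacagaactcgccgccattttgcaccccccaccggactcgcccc
Sox30, chr11:45980060-45980309 (plus strand): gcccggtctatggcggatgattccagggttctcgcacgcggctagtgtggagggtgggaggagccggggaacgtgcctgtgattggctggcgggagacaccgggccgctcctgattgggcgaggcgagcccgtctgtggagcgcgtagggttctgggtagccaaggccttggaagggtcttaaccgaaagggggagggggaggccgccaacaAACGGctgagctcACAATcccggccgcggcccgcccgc
Pou5f2, chr13:78024652-78024901 (plus strand): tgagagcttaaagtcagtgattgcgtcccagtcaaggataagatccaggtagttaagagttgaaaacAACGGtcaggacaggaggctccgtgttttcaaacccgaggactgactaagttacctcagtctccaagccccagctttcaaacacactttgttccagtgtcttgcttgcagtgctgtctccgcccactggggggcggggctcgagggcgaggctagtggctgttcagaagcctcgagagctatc

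Both strands were searched for the MYB cores AACTG and AACGG, the cyclic AMP response element TGACGTCA and its first letters TGACG, the RFX motif GTTGCC, the E-box CACGTG and the SOX core ACAAT. A MYB core was found in 6 of the 6 windows and in 48.6% of the 32851 windows of this length in the table. The Tcfl5 window held 5 MYB cores, a number reached by 0.143% of windows, and the Rfx2 window held 3, reached by 3.47%. Those of Tbpl1, Taf7l, Sox30 and Pou5f2 held 1 each. In Rfx2 the MYB core nearest the start site overlapped the RFX motif GTTGCC, which was in 1 of the 6 windows and in 10.4% of all windows. The full cyclic AMP element was in 0 of the 6 (1.55% of all windows) and TGACG in 1, that of Rfx2 (17.8%). Taf7l was the 1 window with the E-box (6.02%), and Taf7l and Sox30 held a SOX core (27.7%). By sequence the windows were unlike one another: GC content was 76% in Rfx2, 70.4% in Tcfl5, 68% in Sox30, 65.6% in Tbpl1, 53.2% in Pou5f2 and 44.8% in Taf7l. The shares above were counted over all windows, whatever their GC content. A match is a run of letters and does not show that a factor binds there.

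Mybl1 and Tcfl5 are the regulators that act earliest in this programme. Mybl1 (cluster 10353010, chromosome 1) read 11.09, 11.11 and 11.13 in control replicates 1 to 3, and 10.98, 11.04 and 11.14 in knockout replicates 1 to 3, all as log2 values. Knockout replicate 3 lay above every control, and the other knockout arrays lay below every control. The difference was -0.06 (SE 0.051, 95% interval -0.18 to 0.06, fold 0.961, unadjusted p = 0.305 and adjusted p = 0.744 in limma). The interval excludes a fall beyond 0.18 on the log2 scale and does not show that the level was alike.

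Tcfl5 encodes a basic helix-loop-helix factor of spermatocytes that is needed for male meiosis. Its cluster (10490502, chromosome 2) read 10.41, 10.63 and 10.46 in control arrays and 10.05, 10.23 and 10.21 in knockout arrays. Every knockout value was below every control value, and the gap between the groups (10.23 against 10.41) was about the size of the spread within the knockout group. This was the largest difference among the 9 regulators, -0.34 (SE 0.075, 95% interval -0.51 to -0.16, fold 0.792), and it had the smallest p (unadjusted 0.00258, adjusted p = 0.294 in limma). By unadjusted p it ranked 185 among the 21789 clusters. The promoter window with 5 MYB cores, printed above, belongs to this gene, and whether those cores bear on its level was not tested.

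The log2 ratio of Tcfl5 to Mybl1 within each array was -0.68, -0.48 and -0.67 in control and -0.93, -0.81 and -0.93 in knockout arrays, so the groups were separate and Tcfl5 was lower relative to Mybl1 by 0.28 (exact permutation p = 0.1, two-sided, the smallest that 3 against 3 arrays can give). The same ratio to Mybl1 was narrowly separate for Taf7l (-0.57 in knockout replicate 2 against -0.56 in control replicate 3), with a difference of -0.08. It overlapped for Rfx2 (-0.23), Tbpl1 (-0.14) and Sox30 (-0.10). These pairs were chosen after the values were seen. With the 5 pairs of relatives described further on they made 10 comparisons, in which the smallest adjusted permutation p was 0.25. An adjusted p under 0.05 was out of reach with 3 against 3 arrays. The test therefore could not decide whether Mybl1 differed from the others.

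**Figure D2:**
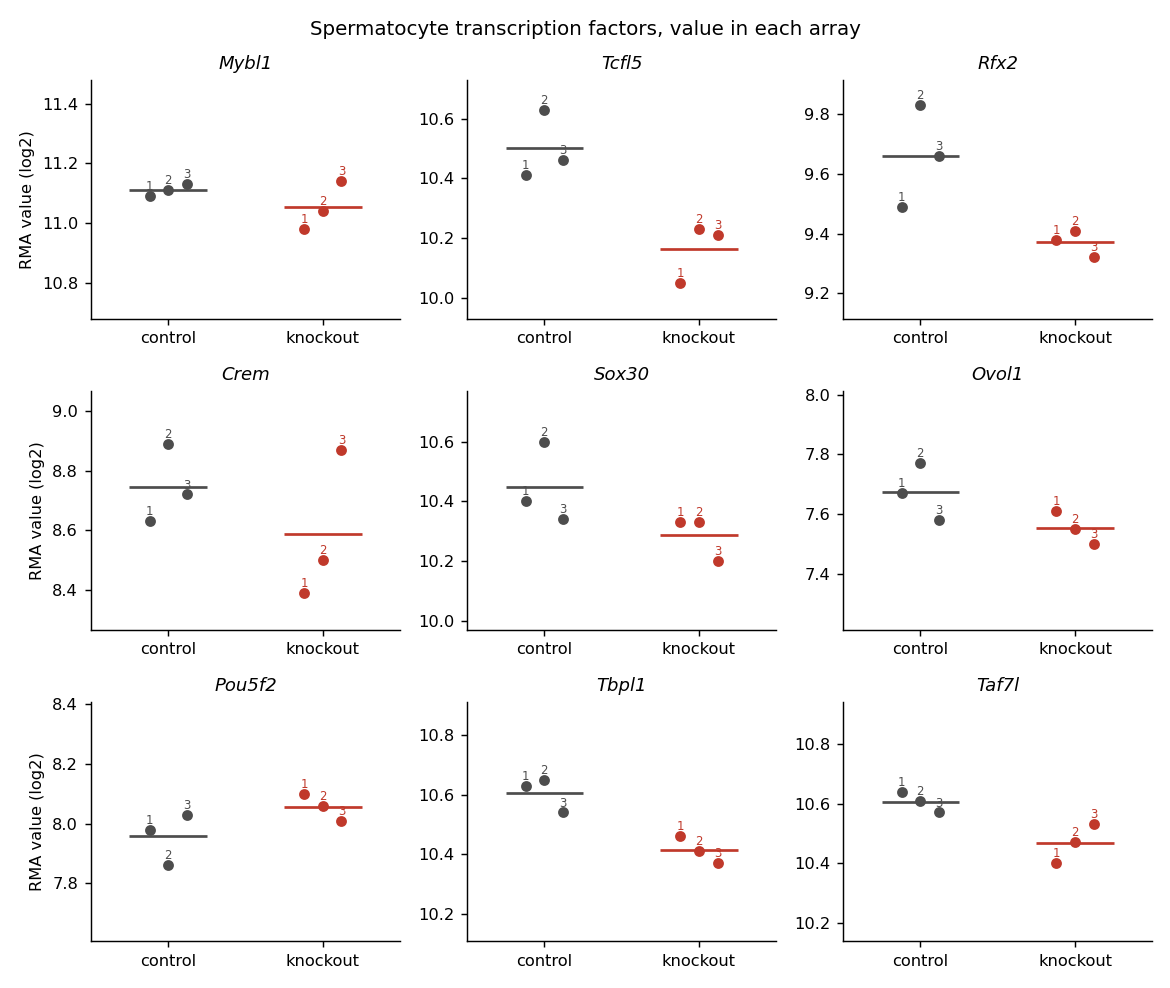
Value of each of the 9 regulators in each array, on the log2 scale (RMA); points are arrays, digits are the replicate numbers, bars are group means, and every panel spans the same height. Knockout points lie below all control points in Tcfl5, Rfx2, Sox30, Tbpl1 and Taf7l, and the groups overlap in Mybl1, Crem, Ovol1 and Pou5f2.

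Rfx2, Crem and Sox30 prepare the spermatid programme. Rfx2 encodes a winged-helix factor that binds X-box motifs and activates genes of the cilium and flagellum. Cluster 10452151 (chromosome 17) read 9.49, 9.83 and 9.66 in control arrays and 9.38, 9.41 and 9.32 in knockout arrays. The knockout arrays were within 0.09 of each other and below every control, while the controls spanned 0.34, with control replicate 1 the lowest. The difference was -0.29 (SE 0.084, 95% interval -0.49 to -0.09, fold 0.818, unadjusted p = 0.0102 and adjusted p = 0.359 in limma). Without control replicate 1 it was -0.38, with an adjusted p = 0.104 in limma, the lowest adjusted p of any of the 9 regulators under any setting tried; the range for Rfx2 was 0.104 to 0.666.

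Crem encodes the cyclic AMP responsive element modulator, an activator of spermatid genes that is made as activating and repressing isoforms; 1 cluster (10457205) reads the gene, and isoforms were not told apart. It read 8.63, 8.89 and 8.72 in control arrays and 8.39, 8.50 and 8.87 in knockout arrays. Knockout replicates 1 and 2 were below every control, but knockout replicate 3 was higher than control replicates 1 and 3, and the knockout spread (SD 0.25) was the widest of the 9. The difference of -0.16 (SE 0.13, 95% interval -0.46 to 0.14, unadjusted p = 0.248 and adjusted p = 0.707 in limma) was not larger than that spread. It was -0.30 without knockout replicate 3, -0.06 without knockout replicate 1 and -0.09 without control replicate 2.

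Sox30 encodes an HMG-box factor required for the development of round spermatids. Its cluster (10375396, chromosome 11) read 10.40, 10.60 and 10.34 in control arrays and 10.33, 10.33 and 10.20 in knockout arrays. The groups were separate by the narrowest margin possible at the precision of the file, 10.33 against 10.34. The difference was -0.16 (SE 0.076, 95% interval -0.34 to 0.02, fold 0.895, unadjusted p = 0.0727 and adjusted p = 0.511 in limma). Without control replicate 2, the highest array, it was -0.08.

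Ovol1 and Pou5f2 were read by the dimmer clusters. Ovol1 encodes a zinc-finger repressor that germ cells need to pass through pachytene. Cluster 10465106 (chromosome 19) read 7.67, 7.77 and 7.58 in control arrays and 7.61, 7.55 and 7.50 in knockout arrays. The groups overlapped, since knockout replicate 1 was above control replicate 3, and the difference was -0.12 (SE 0.060, 95% interval -0.26 to 0.02, unadjusted p = 0.0836 and adjusted p = 0.530 in limma). It was -0.07 without control replicate 2. Pou5f2 encodes a POU-domain factor of male germ cells. Cluster 10406399 (chromosome 13) read 7.98, 7.86 and 8.03 in control arrays and 8.10, 8.06 and 8.01 in knockout arrays. This was the 1 regulator with a higher mean in the knockout, by 0.10 (SE 0.056, 95% interval -0.03 to 0.23, unadjusted p = 0.116 and adjusted p = 0.571 in limma), and its groups overlapped. The difference was 0.05 without control replicate 2. Both clusters lay below the median intensity of the tested clusters, at percentiles 35.5 and 42.0, where differences are compressed in RMA values; the other 7 lay above it.

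Tbpl1 and Taf7l encode relatives of proteins of the general transcription machinery. TBPL1 is a relative of the TATA-binding protein TBP and is needed for spermatid maturation. Its cluster (10368229, chromosome 10) read 10.63, 10.65 and 10.54 in control arrays and 10.46, 10.41 and 10.37 in knockout arrays. The groups were separate, and the spread was small in both (SD 0.059 and 0.045). The difference of -0.19 (SE 0.049, 95% interval -0.31 to -0.08, fold 0.875, unadjusted p = 0.0050 and adjusted p = 0.320 in limma) ranked 339 by unadjusted p, next to Tcfl5 among the 9.

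TAF7L is an X-linked relative of TAF7, a subunit of the TFIID complex that recruits RNA polymerase II. Its cluster (10606674) read 10.64, 10.61 and 10.57 in control arrays and 10.40, 10.47 and 10.53 in knockout arrays. All knockout values were below all control values, with knockout replicate 3 only 0.04 below control replicate 3. The difference was -0.14 (SE 0.049, 95% interval -0.25 to -0.03, fold 0.907, unadjusted p = 0.0228 and adjusted p = 0.397 in limma). The unadjusted p was 0.0695 without control replicate 1, 0.0864 without knockout replicate 1 and 0.0504 without knockout replicate 2.

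By array, the regulators differed within the control group as well. Control replicate 2 was the highest control array for 6 of the 9 genes, and control replicates 1 and 3 were each the lowest for 4. Among the knockout arrays, replicates 1, 2 and 3 were below every control array for 7, 8 and 6 of the 9 genes. The matching share over all tested clusters was not counted for single arrays, so these counts are a description only. The mean of the 9, relative to their control means, was -0.04, 0.07 and -0.03 in control replicates 1 to 3 and -0.18, -0.15 and -0.13 in knockout replicates 1 to 3. The 3 knockout arrays therefore lay below the controls in this mean. The median difference of the 9 was -0.088 without control replicate 2 and stayed between -0.18 and -0.14 when any other array was left out.

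Family members and close relatives of the 9 regulators made a list of 18, of which 17 were measured. The knockout mean was lower for 12 and higher for 5 of the 17, and the median was -0.04. At an unadjusted p under 0.05, 2 were lower and 0 higher, against 6.45% and 4.1% of all tested clusters, and 0 passed the adjusted threshold. The lower count was 1 without control replicate 2, control replicate 3, knockout replicate 1 or knockout replicate 3. It was 3 without control replicate 1. The smallest p belonged to Rfx4, a member of the RFX family, which read 7.85, 8.58 and 8.20 in control and 7.72, 7.61 and 7.64 in knockout arrays. Its groups were separate, with a difference of -0.55 (SE 0.16, adjusted p = 0.360 in limma), beside -0.29 for Rfx2; whether these 2 differ was not tested. Pou5f1, the pluripotency factor OCT4, differed by -0.16 (SE 0.061) and Rfx5, a regulator of MHC class II genes, by -0.13 (SE 0.055), neither past the threshold.

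Within each array, 5 regulators were also set against a close relative, in pairs chosen after the values were seen. The log2 ratio of Tbpl1 to Tbp was -0.38, -0.48 and -0.57 in control and -0.61, -0.61 and -0.67 in knockout arrays, with separate groups and a difference of -0.15. That of Taf7l to Taf7 was 1.96, 2.04 and 2.07 against 1.88, 1.93 and 1.95, with a difference of -0.10. Its groups were also separate, but only narrowly (1.95 against 1.96). These ratios compare the change and not the level of the genes, since different probes have different brightness. Both had an exact permutation p of 0.1, the smallest possible. The ratios of Rfx2 to Rfx1 (difference -0.20), Crem to Creb1 (-0.20) and Mybl1 to Mybl2 (0) overlapped between the groups.

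General transcription factors and partners of the 9, a list of 11, all measured, had 9 genes with a lower and 2 with a higher mean in the knockout, and a median of -0.04 (-0.02 without control replicate 3, and -0.015 without knockout replicate 1 or 3). By unadjusted p, 0 were lower and 0 higher, against 6.45% and 4.1% of all tested clusters, and 0 passed the adjusted threshold in limma. The lower count was 1 when any 1 control array or knockout replicate 3 was left out. Gtf2a1l, the germ-cell form of the large TFIIA subunit that can pair with TBPL1, had the largest difference, -0.34 (SE 0.16, adjusted p = 0.499). It read 8.08, 8.66 and 8.45 in control and 8.00, 7.88 and 8.28 in knockout arrays, and the groups overlapped through control replicate 1. The TFIID subunits Taf4 (-0.14, SE 0.064) and Taf1 (-0.10, SE 0.057) had the next smallest p-values.

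Other regulators of spermatocyte and spermatid genes, 15 in all, split into 9 with a lower and 6 with a higher knockout mean, the median being -0.05 (-0.02, -0.03 and -0.08 when control replicates 1, 2 and 3 were left out in turn). By unadjusted p, 4 were lower and 0 higher, against 6.45% and 4.1% of all tested clusters, and 0 passed the adjusted threshold. Phf7, a germ-cell reader of histone marks, had a difference of -0.42 (SE 0.11, adjusted p = 0.320 in limma). Its groups were separate, with 10.69, 11.08 and 10.97 in control and 10.43, 10.43 and 10.62 in knockout arrays. Hsf5, a heat shock factor of spermatocytes, differed by -0.32 (SE 0.10) and Ybx2, an RNA-binding protein that stores germ-cell messages, by -0.30 (SE 0.095). The groups of these last 2 overlapped. The count of 4 was 2 without control replicate 2 or knockout replicate 2.

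Regulators of spermatogonia and of entry into meiosis act before the 9. Of 13 listed, 12 were measured, with a lower knockout mean for 10, a higher one for 2 and a median of -0.11. By unadjusted p, 6 were lower and 1 higher, against 6.45% and 4.1% of all tested clusters, and 0 passed the adjusted threshold. Separate groups were seen for 7 on the lower side and 1 on the higher side, against 8.6% and 6.73% of clusters. Sall4, a zinc-finger factor of spermatogonia, differed by -0.30 (SE 0.063), and Dmrtb1, which times the entry into meiosis, by -0.36 (SE 0.076). Etv5, a factor of stem spermatogonia, differed by 0.25 (SE 0.055) in the other direction; its other cluster also differed by 0.25, with overlapping groups. Adjusted p-values of the 3 were 0.288, 0.288 and 0.294 in limma. The count of 6 was 3 without control replicate 3 or knockout replicate 2, and 4 when any other array except control replicate 2 was left out.

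Genes linked to MYBL1, to RFX factors and cilia, or to CREM were described in 3 lists. Some of them recur in the marker lists below, so these lists are not independent of each other. Piwil1, H1f6, Spag6l, Ldhc and Acr are also pachytene markers, and Mael is also a germ cell marker. Prm1, Prm2, Tnp1, Tnp2 and Odf1 are also round spermatid markers. Whether the genes of the 3 lists depend on the 9 regulators in these samples was not tested. The 8 piRNA pathway genes whose promoters MYBL1 is known to bind all had a lower knockout mean, and their median was -0.29. By unadjusted p, 7 were lower and 0 higher, against 6.45% and 4.1% of all tested clusters, and 0 passed the adjusted threshold. Without control replicate 2 the lower count was 5 and the median -0.24. The count was 6 without knockout replicate 1 or 2. Separate groups on the lower side were seen for 5 of the 8, against 8.6% of clusters. Tdrd1, a tudor-domain protein of the piRNA pathway, had the smallest p (-0.40, SE 0.059, adjusted p = 0.239 in limma) and read 10.59, 10.73 and 10.77 in control against 10.25, 10.30 and 10.35 in knockout arrays. Tdrd12 (-0.28, SE 0.063) and Mael (-0.22, SE 0.051), both needed for piRNA production, followed. For these 3 genes the groups were separate. The largest differences of the list, those of Tdrd6 (-0.80) and Piwil1 (-0.67), had overlapping groups. The difference of Mybl1 itself was -0.06, with overlapping groups.

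Of the 8 genes of the RFX and cilium list, 8 had a lower knockout mean, and the median was -0.17 (-0.11 without control replicate 2). By unadjusted p, 4 were lower and 0 higher, against 6.45% and 4.1% of all tested clusters, and 0 passed the adjusted threshold. Separate groups on the lower side were seen for 2 of the 8, against 8.6% of clusters. Ttc8, a subunit of the BBSome of cilia, differed by -0.18 (SE 0.055). H1f6, the testis linker histone H1t, differed by -0.45 (SE 0.16), and Spag6l, a protein of the flagellar axoneme, by -0.57 (SE 0.22). The values of Spag6l were 9.28, 10.19 and 9.86 in control and 9.08, 9.11 and 9.44 in knockout arrays. Control replicate 1 thus lay below knockout replicate 3, as it did in H1f6 (10.06 against 10.17). The count of 4 was 1 without control replicate 2, control replicate 3, knockout replicate 1 or knockout replicate 2. It was 5 without control replicate 1.

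The 9 CREM targets had 6 genes with a lower and 3 with a higher knockout mean, and a median of -0.04. That median was -0.12 without control replicate 3, -0.095 without knockout replicate 1, and -0.0033 without control replicate 2 or knockout replicate 2. By unadjusted p, 3 were lower and 1, the protamine Prm1, higher (0.21), and 0 passed the adjusted threshold. The shares over all tested clusters were 6.45% lower and 4.1% higher. The 3 lower ones were Ldhc, the testis lactate dehydrogenase (-0.75, SE 0.23), Camk4, a calmodulin kinase (-0.13, SE 0.043), and Acr, the acrosomal protease acrosin (-0.59, SE 0.19), and Ldhc and Acr are transcribed from pachytene on. Of the 9 clusters, 8 lay below the median intensity of the tested clusters. Prm2, Tnp1, Tnp2, Odf1 and Smcp, haploid-stage genes of this list, had differences between -0.07 and 0.05. A list of 10 round spermatid markers, all below that intensity median, had a median difference of 0.01 (0.03 without control replicate 2, and -0.0067 without control replicate 3) and its smallest p in Prm1.

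**Figure D3:**
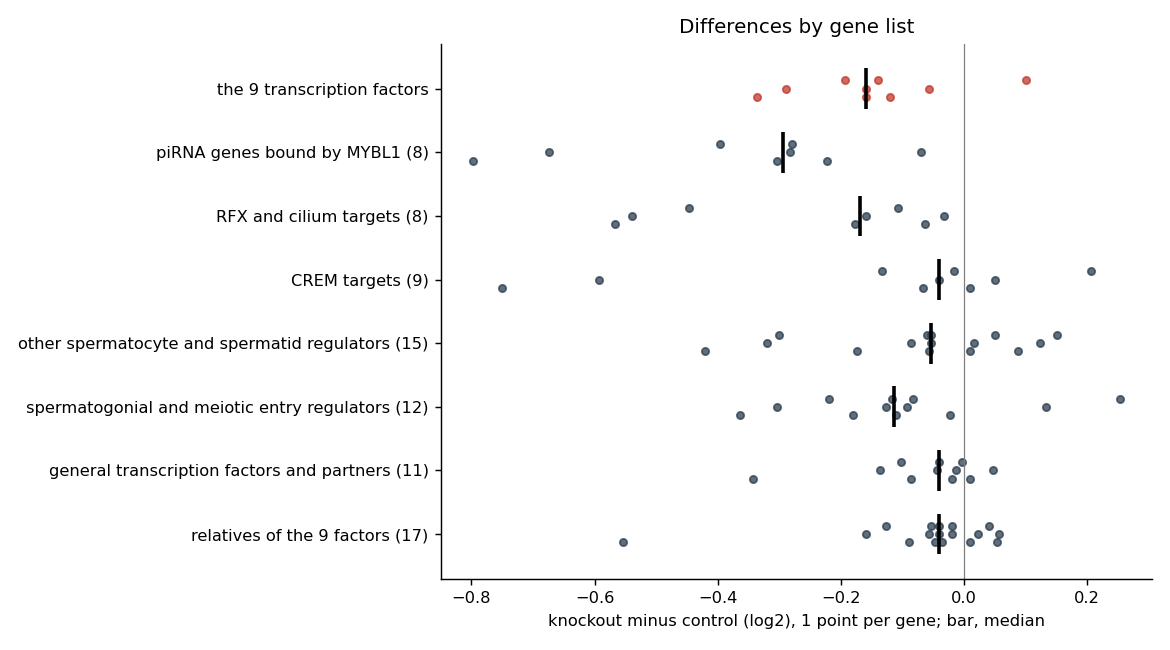
Difference between knockout and control on the log2 scale for every measured gene of the described lists (points, number of genes in brackets) with the median of each list (bars); the 9 regulators are in red. The median is -0.16 for the 9 regulators, -0.29 for the piRNA genes and -0.04 for the relatives of the regulators, the general factors and the CREM targets.

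Markers of stages and cell types also differed between the groups. The 14 pachytene markers had a median of -0.51 (-0.33 without control replicate 2), with 12 genes below their control means and 2 above. At an unadjusted p under 0.05, 9 were lower and 0 higher, against 6.45% and 4.1% of all tested clusters, and 0 passed the adjusted threshold in limma. Separate groups on the lower side were seen for 3 of the 14, against 8.6% of clusters. Ccna1, the meiotic cyclin A1, had the smallest p of the 14 (-0.27, SE 0.066). Relative to the control mean, the pachytene mean was -0.34, 0.26 and 0.08 in control replicates 1 to 3 and -0.53, -0.47 and -0.27 in knockout replicates 1 to 3. Control replicate 1 thus lay below knockout replicate 3 in the pachytene markers, while in the mean of the 9 regulators it lay above all knockout arrays. The count of 9 ranged from 2 without control replicate 2 to 11 without control replicate 1, was 3 without control replicate 3, and was 4 without knockout replicate 1 or 2. Of the 11 early meiosis markers, 9 had a lower knockout mean, and the median was -0.04 (-0.12 without knockout replicate 3, and -0.06 without control replicate 2). By unadjusted p, 3 were lower (5 without knockout replicate 3) and 0 higher, against 6.45% and 4.1% of all tested clusters. On the lower side 4 had separate groups, against 8.6% of clusters, and 0 passed the adjusted threshold. Spo11, which makes meiotic DNA breaks, had the smallest p (-0.35, SE 0.063).

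The mean level of 6 general germ cell markers ran from 11.60 to 11.67 in control and from 11.49 to 11.58 in knockout arrays, with 5 of 6 genes below the control mean and the smallest p in Mael. That of 11 Sertoli cell markers, the somatic cells that nurse germ cells, ran from 11.19 to 11.25 in control and from 11.26 to 11.33 in knockout arrays, with 10 of 11 genes above the control mean and the smallest p in Kitl, the stem cell factor (0.28, SE 0.041). The 8 macrophage markers were all above the control mean (9.22 to 9.38 in control, 9.40 to 9.46 in knockout), with the smallest p in Cx3cr1 (0.16, SE 0.053). Leydig cell markers overlapped (9.50 to 9.86 and 9.76 to 9.97; 4 of 5 genes above the control mean; smallest p in Hsd17b3, -0.43). So did peritubular myoid (4 of 6 genes lower; Des, 0.15), endothelial (5 of 6 lower; Egfl7, -0.07), epididymis (4 of 5 lower; Lcn5, -0.31) and adipocyte markers (4 of 5 lower; Plin1, 0.12). The mean of the 2 measured erythrocyte markers was higher in each knockout array (8.14 to 8.28) than in any control (7.88 to 8.07; Alas2, 0.28). No gene of these marker lists passed the adjusted threshold in limma. The part of cell composition in the differences of the 9 regulators was not tested.

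**Figure D4:**
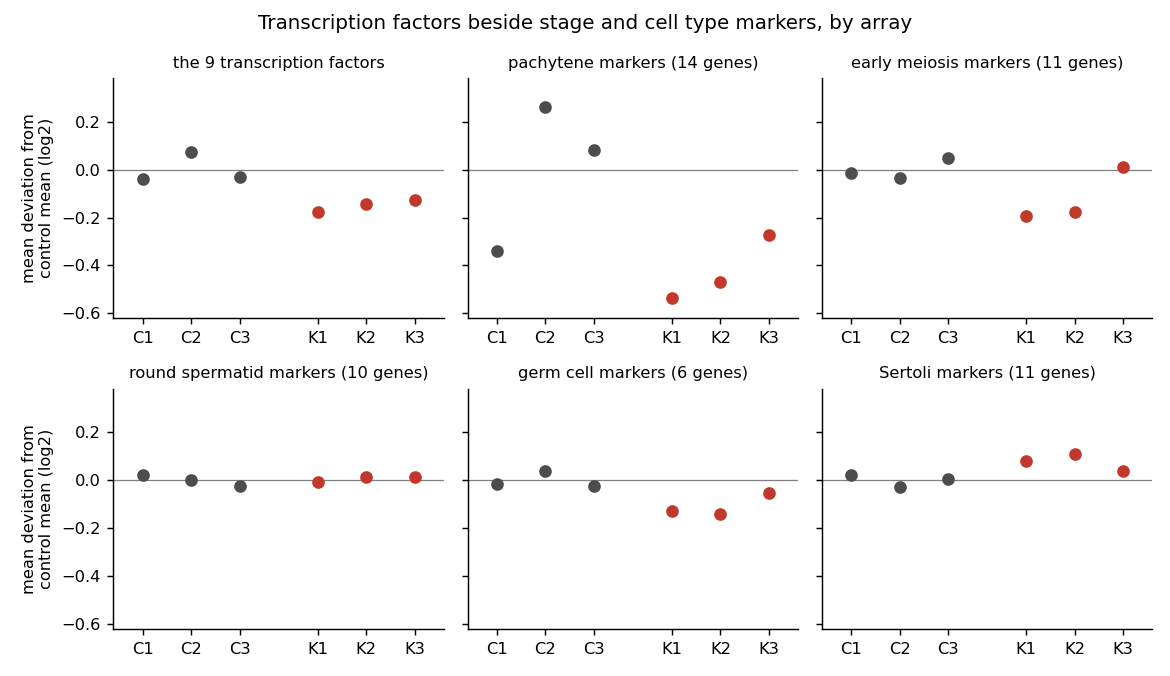
Mean deviation from the control mean, on the log2 scale, for the 9 regulators and for 5 marker lists in each array (C1 to C3, control replicates; K1 to K3, knockout replicates). In the 9 regulators and the germ cell markers the knockout arrays lie below the controls, in the Sertoli markers above them, and in the pachytene markers control replicate 1 (-0.34) lies below knockout replicate 3 (-0.27).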

How the data were processed

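Whole testis RNA of 3 control and 3 knockout samples, grouped by their labels, was read on 1 array each. The deposited table holds log2 values that the authors computed by RMA in Affymetrix Expression Console, per the submitters' processing notes; its version, the probe annotation and the build were not given in the sources used here. RMA gives all arrays a shared distribution, so a change of all transcripts would not show. The number of arrays limits the precision. Array medians ran from 8.52 to 8.55.

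Clusters were named through the platform annotation and the RefSeq gene table of GRCm38.p6 (21698 of 21789 matched). The 21789 of 35556 rows with a single symbol were fitted by limma 3.58.1 in R 4.3.3 (lmFit, eBayes, 4 residual and 3.24 prior degrees of freedom) without covariates, and p-values were adjusted over all of them by Benjamini-Hochberg. Differences are knockout minus control, and folds are knockout over control. A listed gene with several clusters was represented by the brightest on average. The procedure was tested on simulated data. Ratios were tested with a two-sided exact permutation test over arrays. Lists are described by counts and medians, with no test.

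Named genes are the 9 regulators, the 3 with the smallest p of each pathway list and the 1 with the smallest p of each marker list; Tbp, Taf7, Rfx1, Creb1, Mybl2 and the haploid CREM targets were added after their values were seen. The members and lists were chosen with earlier results of these data known. Alternatives were a replicate block, median-centred arrays, an intensity trend with a robust prior, all rows tested, the dimmest 25% of clusters left out, array weights, each array left out in turn, the mean over all clusters of a gene, and an adjusted p under 0.1. The targeted gene is not reported here, so its level gave no check of the genotype labels.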

Additional observations from a re-analysis of the deposited data

How the results depend on the processing

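Each of the 9 regulators kept the sign of its difference in all 12 alternative fits, and the count past an adjusted p of 0.05 was 0 in each of them and at an adjusted p under 0.1. The lowest adjusted p per gene over these fits ranged from 0.104 (Rfx2) to 0.599 (Mybl1). The count at an unadjusted p under 0.05, 4 with all arrays, lay between 3 and 6 when 1 array was left out, with 4.406% to 6.145% of all tested clusters lower by the same rule (6.45% with all arrays). The count with separate groups, 5, lay between 5 and 7, but 3 arrays against 2 separate more easily: the share over all tested clusters was 12.05% to 14.32% there, against 8.6% with all arrays. With centred arrays it was 4, against 5.89%. The median difference of -0.16 ranged from -0.18 to -0.088 when 1 array was left out; the smallest came without control replicate 2, the highest control array for 6 of the 9 genes. Tcfl5, Tbpl1 and Rfx2 had an unadjusted p under 0.05 in 12 of the 12 fits, Taf7l in 8, Sox30 in 3, Ovol1 and Crem in 1 each, and Mybl1 and Pou5f2 in 0.

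Samples share replicate numbers across the groups. Deviations from the group means correlated at 0.17, -0.05 and 0.17 for numbers 1, 2 and 3 over tested clusters. Those of numbers 1 and 3 were the highest of all combinations, the next being 0.08 (control replicate 1 with knockout replicate 2). Control replicate 2 correlated best with knockout replicate 3 (0.06). The labels do not say that the numbers mark pairs. They were not taken as pairs in the main fit, and these correlations do not settle whether they are. With the replicate block the count past the threshold was 0, the unadjusted count 4 and the median -0.16, and in limma Taf7l had an unadjusted p of 0.0515 and Sox30 one of 0.0336, so that Sox30 took the place of Taf7l among the 4. Over all tested clusters, the count past the threshold was 3 with all arrays, 52 without control replicate 1, 7 with an intensity trend and robust prior, 4 with centred arrays or without dim clusters, 3 with array weights, 1 without control replicate 2 and 0 in the other fits. Centring moved the median of all differences from 0.0033 to 0.023.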
